A study of Cephalotaxus fortunei with 9 samples.

Results

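In the conifer Cephalotaxus fortunei, known for its cephalotaxine-type alkaloids, 188 of 37051 transcripts were abundant in both leaf and stem and at least 10 times lower in root on average. They were chosen on the measured values. A transcript was taken when it reached at least 30 TPM (a length-scaled abundance with the same total in every library) in each of the 6 leaf and stem libraries, when its leaf and stem means lay within 3-fold of each other, and when its root mean was at most 10% of the smaller of these means. Of the 37051 transcripts, 3190 passed the first condition, 2865 also the second, and 188 (6.56% of the 2865) also the third. The other 2677 transcripts with an even shoot level serve below as the set not depleted in root.

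The series was made to select candidate enzymes of alkaloid synthesis, and its groups were leaf, stem and root, with 3 libraries each of poly(A)-selected RNA. The labels give tissue only, and do not state plant age, genotype, treatment, the season, or whether libraries came from separate plants, so the spread between libraries may be technical in part. Between root replicates 1 and 2 the read numbers differed by less than sampling noise, with a chi-square per degree of freedom of 0.527 over 19407 transcripts, whereas other library pairs of a tissue gave 14.6 to 29.4. The pair was averaged and counted as 1 sample, leaving 2 root samples. Estimated reads per library ran from 12809484 to 14606814 for leaf, from 18417327 to 19652495 for stem and from 7117807 to 8093638 for root. In these bulk samples, fewer cells of a type and less RNA per cell cannot be told apart.

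As background, leaf and stem are the aerial organs of a conifer. Their outer living tissues are green and carry out photosynthesis, whereas the root takes up water and mineral nutrients and normally lacks functional chloroplasts. Genes of light harvesting, carbon fixation and chlorophyll synthesis are therefore known in seed plants as genes with high messenger levels in green organs and low levels in root. The files name transcripts by running number only and pair them with no gene name or sequence. No role could be given to any of the 188 transcripts, and the identity of the tissues could not be checked against marker genes.

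As a group, the 188 transcripts held 10.2% ± 0.0462 of the TPM of leaf and 9.43% ± 0.16 of that of stem (mean ± SD, n = 3 libraries each). In root they held 0.442% ± 0.343 (mean ± SD, n = 2 samples). By library the share was 10.2%, 10.1% and 10.1% in leaf and 9.61%, 9.37% and 9.32% in stem. In root it was 0.686%, 0.683% and 0.2% in replicates 1, 2 and 3. The 6 shoot libraries stood close together. No root library came near them, which the selection fixes. The spread was on the root side, where replicate 3 was the lower sample. That difference lay in 3 of the 4 most abundant transcripts, described below. The 4 held 0.574%, 0.571% and 0.0692% of TPM in root replicates 1, 2 and 3. The other 184 held 0.112%, 0.112% and 0.131%, so without these 4 the root samples stood close to each other. The same 184 held 4.45% ± 0.0804 in leaf and 3.7% ± 0.016 in stem (mean ± SD, n = 3 libraries each).

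**Figure D1:**
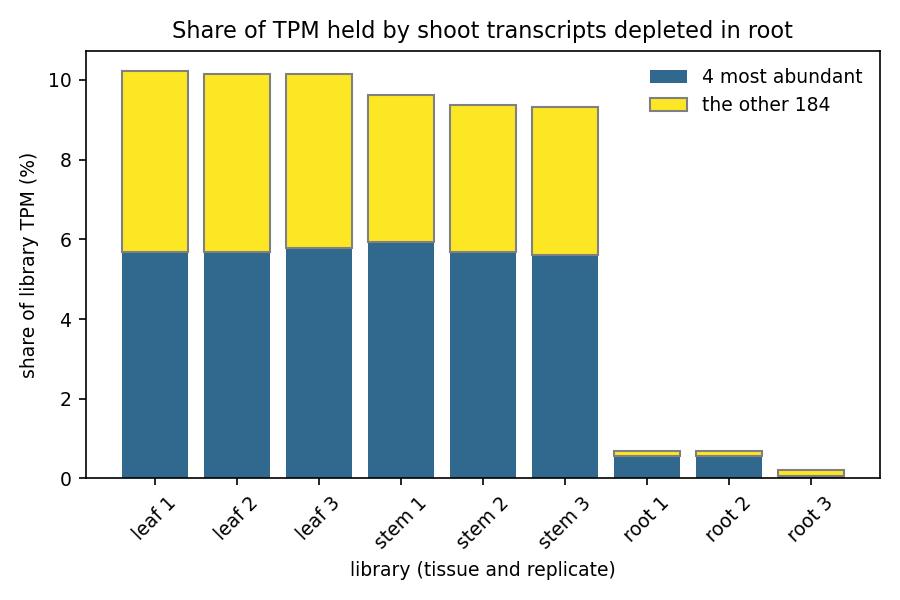
Share of each library's TPM (y axis, percent) held by the 188 transcripts, one bar per library, divided into the 4 most abundant transcripts and the other 184. Leaf bars reach 10.1% to 10.2%, stem bars 9.32% to 9.61%, and root bars 0.2% to 0.686%.

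Shoot levels spanned 3 orders of magnitude. The mean of the leaf and stem means ran from 32.4 to 27684 TPM, with a median of 112 TPM and quartiles of 71.1 and 238 TPM. Of the 188 transcripts, 8 reached at least 1000 TPM, 98 lay between 100 and 1000 TPM, and 82 stayed under 100 TPM. The 2677 transcripts not depleted in root had a median of 84.9 TPM on the same measure. The median TPM over the 188 transcripts was 115 to 120 in each leaf library and 109 to 120 in each stem library. It was 3.16, 3.42 and 4.47 in root replicates 1, 2 and 3.

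**Figure D2:**
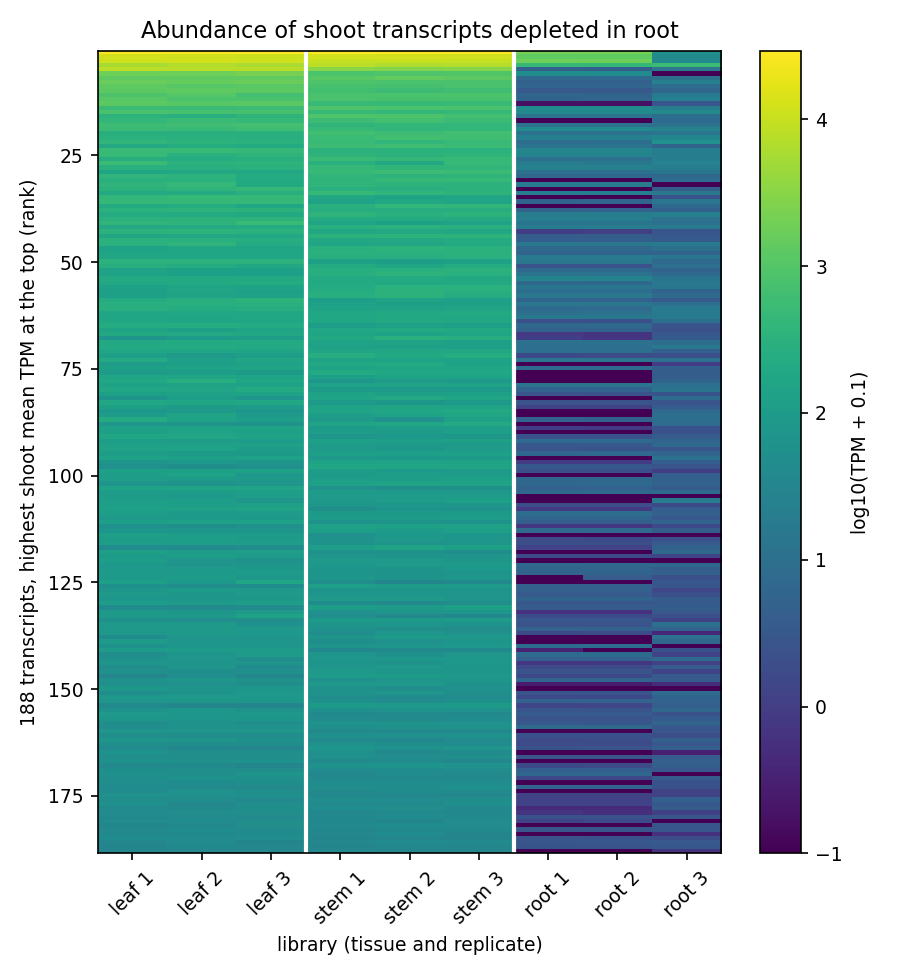
Abundance of the 188 transcripts (rows, ordered by shoot mean TPM with the highest at the top) in the 9 libraries (columns), as log10(TPM + 0.1) by colour. Leaf and stem columns have similar colours row by row on this log scale, where the rule holds their means within 3-fold. Root columns are darker. The darkest cells are transcripts listed at 0, of which root replicates 1 and 2 hold 34 each and root replicate 3 holds 9.

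The most abundant of them was transcripts_26271 (386 bases), whose encoded product the files do not name. It stood at 27150.4, 25587 and 29257 TPM in the leaf libraries and at 29266, 27549 and 27293 TPM in the stem libraries. In root it stood at 2100.4, 2088 and 51.9 TPM in replicates 1, 2 and 3. Leaf and stem overlapped, while root replicate 3 was 40.4 times lower than the mean of the other root libraries. Its means were 27332 ± 1842 TPM for leaf and 28036 ± 1073 TPM for stem (mean ± SD, n = 3 libraries each). For root the mean was 1073 ± 1444 TPM (SD, n = 2 samples), an SD above the mean.

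The next, transcripts_30852 (776 bases), had the same form. Its level was 12169.6, 12069 and 11024 TPM in leaf, 12179, 12646 and 12016 TPM in stem, and 1343, 1349 and 38.4 TPM in root replicates 1, 2 and 3. Leaf and stem again overlapped, and root replicate 3 was 35 times lower than the other root libraries. The third in rank, of 512 bases, stood at 11897, 12362 and 11567 TPM in leaf and at 9839.6, 9948 and 9527 TPM in stem. In root it stood at 1839, 1839 and 40.6 TPM, a ratio of 45.3 between the root samples. Every leaf library was above every stem library for this transcript. The gap between root samples rested on many reads: the averaged pair had 2919.9, 10060.1 and 6387 reads on these 3 transcripts, and root replicate 3 had 71.8, 295 and 144. Over all 37051 transcripts, 103 reached 1000 TPM in the averaged root pair, and 3 of these were more than 20 times lower in root replicate 3. All 3 were the transcripts just described. Which root sample is typical of the organ cannot be told from 2 samples.

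The fourth in rank, at 201 bases as short as any transcript in the tables, did not share this gap. It stood at 5645, 6877 and 5860.2 TPM in leaf, 8007, 6538 and 7148 TPM in stem, and 458, 430.3 and 561 TPM in root replicates 1, 2 and 3. Leaf and stem overlapped and the root samples stood close together. The fifth, of 551 bases, was unequal within the shoot, with 8311, 7919 and 7477 TPM in leaf against 3079, 2764 and 2907 TPM in stem. Its root values were 4.64, 4.46 and 14.4 TPM, so the lower shoot mean was 308 times the root mean. The sixth, of 1261 bases, stood at 1821, 1835 and 2187 TPM in leaf, 816, 901 and 946 TPM in stem, and 46.8, 45.6 and 0 TPM in root. Its averaged root pair had 653 reads and root replicate 3 had 0. The remaining transcripts of at least 1000 TPM, of 2199 and 906 bases, lay between 1122 and 1422 TPM and between 772 and 1654 TPM in the shoot libraries. In root they lay between 7.16 and 10.2 TPM and between 4.62 and 23.5 TPM.

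Depletion in root was next described by the ratio of the lower shoot mean to the root mean, which the selection holds at 10 or more. The median ratio was 19.4, with quartiles of 12.7 and 39.5. In this distribution the 4 transcripts without a read in root were set to a floor of 3 reads over the root samples. A ratio of at least 20 was found for 91 transcripts, of at least 50 for 37 and of at least 100 for 18. In root, 42 of the 188 still reached a mean of 10 TPM, and 10 stayed below 1 TPM in both root samples. Just inside and outside the limits of the rule were lowest shoot values of 30.01 and 29.98 TPM, ratios of the shoot means of 2.952 and 3.036, and root means of 9.997% and 10.08% of the lower shoot mean. The limit on root cut a continuous distribution: 92 transcripts had a root mean of up to 5% of the lower shoot mean, 96 of 5% to 10%, 67 of 10% to 15% and 70 of 15% to 20%.

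The 4 transcripts without a read in any root library were 5515, 4047, 3346 and 232 bases long. The transcript of 5515 bases stood at 109.5, 71.4 and 62.4 TPM in leaf and at 89.2, 91.7 and 79.5 TPM in stem. The transcript of 4047 bases stood at 98.2, 90.2 and 109 TPM in leaf and at 101, 105 and 105 TPM in stem. Leaf and stem overlapped for both. The transcript of 3346 bases was higher in each leaf library (81.2, 66.6 and 74.2 TPM) than in each stem library (60.9, 51.7 and 58.9 TPM). Against the floor of 3 reads, the lower shoot mean was at least 2519.6-fold, 2249.7-fold and 1061-fold higher than root for these 3. The transcript of 232 bases stood at 104 to 125 TPM in leaf and 58.7 to 80.9 TPM in stem. Its bound was only 13.4-fold, because 3 reads over both root samples together give so short a transcript a root mean of 5.32 TPM. These floors cover counting error only.

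The reads behind the root values were few for many of the 188 transcripts. The median was 42.7 reads over both root samples, with quartiles of 12.2 and 124, against 889.7 reads in the poorest shoot library of each transcript. Besides the 4 at 0 reads, 15 transcripts had at most 3 reads in root, and 128 had at least 20. Among transcripts with at least 20 root reads the deepest ratio was that of a transcript of 1160 bases, at 1119 to 1234 TPM in leaf and 451 to 504 TPM in stem. It stood at 0.0746, 0.0761 and 2.78 TPM in root replicates 1, 2 and 3, and its lower shoot mean was 333 times the root mean.

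The root samples were then compared with each other on the 188 transcripts, since the rule used their mean and not their difference. Of the 188, 150 (79.8%) were at or under 10% of the lower shoot mean in both root samples. A further 25 passed that limit in the averaged pair and not in root replicate 3, and 13 passed it in root replicate 3 and not in the averaged pair. None exceeded 20%, which the rule itself excludes for a mean of 2 values. Among the 128 transcripts with at least 20 root reads, the root samples lay within 2-fold of each other for 77 (60.2%). Root replicate 3 was more than 2-fold higher for 31 and more than 2-fold lower for 20. With 200 root reads or more the share within 2-fold was 60% (18 of 30), compared with 91.3% of 8440 other transcripts at that depth. With 20 to 200 root reads it was 60.2% (59 of 98), compared with 73.1% of 11959 others. The selection acts on the root mean, and the difference in these shares was not tested.

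**Figure D3:**
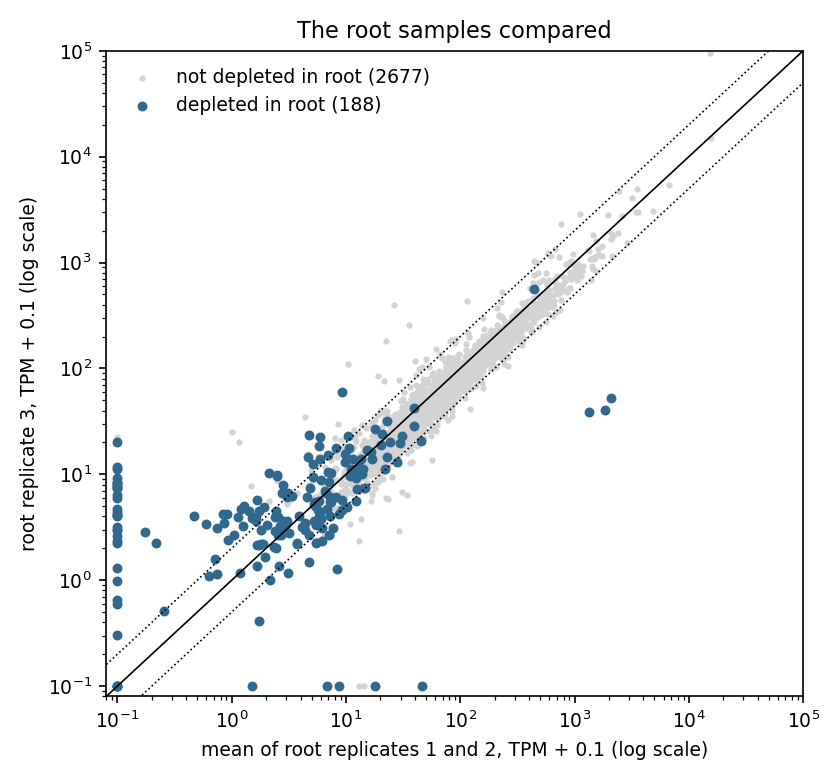
TPM + 0.1 in root replicate 3 (y axis) against the mean of root replicates 1 and 2 (x axis), both on log scales, for the 188 transcripts depleted in root and the 2677 that were not. The solid line marks equality and the dotted lines 2-fold. The 3 points far to the lower right are the most abundant transcripts, at 1346 to 2094 TPM in the averaged pair and 38.4 to 51.9 TPM in root replicate 3.

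Disagreement between the root samples went both ways. More than 10-fold lower in root replicate 3 were 6 transcripts with at least 20 root reads. They were the 3 most abundant, the sixth in rank, and transcripts of 1020 and 2723 bases. The transcript of 1020 bases stood at 8.51, 8.8 and 0 TPM in root replicates 1, 2 and 3, and that of 2723 bases at 1.23, 1.55 and 0 TPM. More than 10-fold higher in root replicate 3 were 7 transcripts, among them one of 1043 bases at 0, 0 and 11.6 TPM, with 123 reads in root replicate 3. Its shoot values were 44.4 to 70.1 TPM in leaf and 68.7 to 96.6 TPM in stem. Of the 188 transcripts, 34 (18.1%) had 0 reads in root replicate 1 and 34 in root replicate 2, against 9 (4.79%) in root replicate 3. Over all transcripts, root replicate 3 also had the fewest at 0 reads (7.03%, against 23.5% and 23.6% in the other root libraries). The part of that library in the result was not tested beyond the counts without it.

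Each of the 188 transcripts was called lower in root than in leaf, and each was called lower in root than in stem (edgeR quasi-likelihood test over 24564 transcripts, adjusted p under 0.05 and at least 2-fold). Over all transcripts tested, 17.7% were called higher in leaf than in root and 20.3% higher in stem than in root. The rule used these contrasts, so nothing is read from the counts. The median log2 fold change was 4.60 for leaf over root and 5.24 for stem over root, against -0.27 and -0.46 over all transcripts tested. These values are on a scaling (TMM, described below) that moves every transcript toward stem relative to leaf. In TPM the 188 transcripts had a median of 114 for the leaf mean and 112 for the stem mean. Both comparisons with root share the root samples.

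Within the shoot, the rule holds the leaf and stem means of the 188 transcripts within 3-fold of each other. The ratio of the leaf to the stem mean had a median of 1.06 and quartiles of 0.741 and 1.5. The means lay within 1.5-fold for 100 transcripts (53.2%) and more than 2-fold apart for 43 (22.9%). Of the 2677 transcripts not depleted in root, 13.0% were more than 2-fold apart under the same bound of 3-fold. In TPM, 76 of the 188 (40.4%) were higher in every leaf library than in every stem library and 60 (31.9%) the converse. Over all 30350 transcripts with a read in the shoot, 39.2% and 14.5% were separated in these directions. The remaining members overlapped.

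The direction of leaf against stem calls depended on scaling. With TMM, a scaling that sets the bulk of transcripts level, 46 transcripts were called higher in stem and 1 higher in leaf, and 141 were not called. Over all transcripts tested, 14.4% were called higher in stem and 14.5% higher in leaf. Of the 2677 transcripts not depleted in root, which share the bound of 3-fold, 449 (16.8%) were called higher in stem and 5 (0.187%) higher in leaf. With library totals alone, 20 were called higher in stem and 17 higher in leaf, against 10% and 25.7% of all tested. The tested transcripts as a whole are not bound to 3-fold. The share of the 2677 is not given for library totals, so no deficit or excess is read from these numbers. The TMM factors were 0.75 to 0.79 in stem and 1.12 to 1.14 in leaf, which moves every transcript toward stem relative to library totals. The fit shared a common estimate of each transcript's spread over the 3 tissues. A difference between the root samples can therefore widen the standard error (SE) of leaf against stem. For transcripts_26271 this SE was 0.93 (log2), with coefficients of variation of 6.74% in leaf and 3.83% in stem. With leaf and stem libraries only and a replicate block, 45 were called higher in stem and 3 higher in leaf. That fit left out root and added the block at once, so it cannot separate these changes. The share of all transcripts called is not given for it, so nothing is read from its counts. The rule limits this contrast too, so these counts describe the transcripts and are not a test of them.

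**Figure D4:**
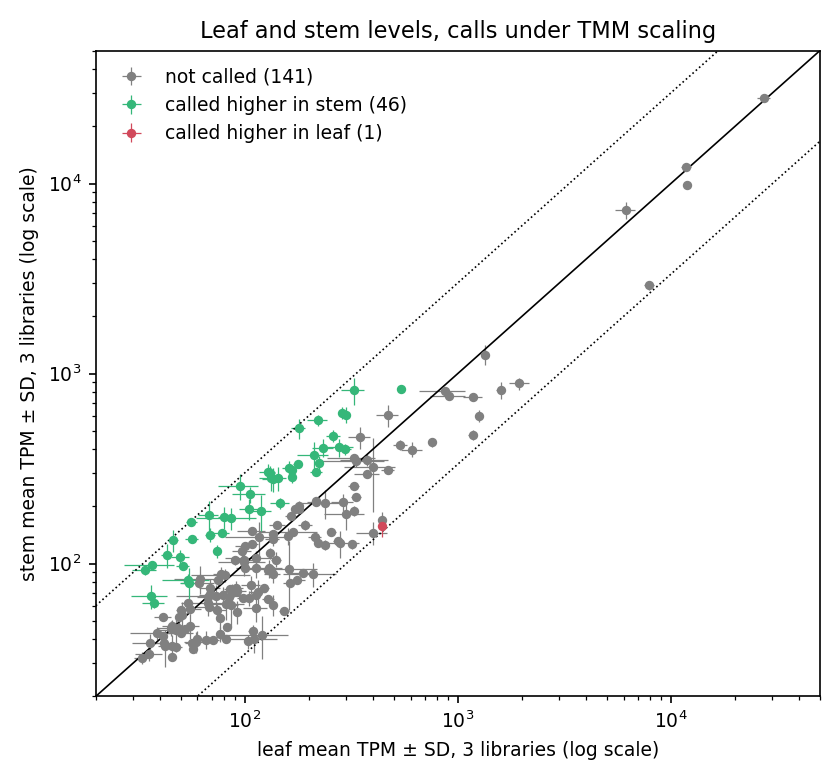
Stem mean TPM (y axis) against leaf mean TPM (x axis) for the 188 transcripts, on log scales, with bars of 1 SD over 3 libraries. The solid line marks equality, the dotted lines the 3-fold limits of the rule, and colours the edgeR calls under TMM: 46 higher in stem, 1 higher in leaf and 141 not called.

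The ends of the shoot range held transcripts that differed clearly between leaf and stem. The largest leaf excess without overlap was that of transcripts_12372 (419 bases), with 121, 80.1 and 160 TPM in leaf and 53.6, 32.3 and 41.1 TPM in stem. It varied strongly within leaf, at 120 ± 39.7 TPM (SD, n = 3). Its fitted log2 fold change was 1.03 ± 0.53 (SE) with TMM, which was not called, and 1.59 with library totals. In root it had 0, 0 and 3.06 TPM, a difference that also enters the SE. The next was transcripts_21985 (811 bases), with 444, 431 and 441 TPM in leaf and 140.2, 181 and 154 TPM in stem. Its libraries agreed more closely within leaf, and it was the 1 transcript called higher in leaf with TMM. Its log2 fold change was 1.08 ± 0.26 (SE) with TMM and 1.62 with library totals. Its root values were 5.8, 5.93 and 13.9 TPM.

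The largest stem excess was that of transcripts_11736 (1854 bases), with 57.9, 52.3 and 58.3 TPM in leaf and 169, 171 and 158 TPM in stem. Its log2 fold change of leaf over stem was -2.15 ± 0.07 (SE) with TMM and -1.6 with library totals. It also had even root values, at 3.06, 3.06 and 2.66 TPM. For transcripts_18190 (327 bases) the values were 44.7, 43.9 and 49.1 TPM in leaf and 118, 153 and 129 TPM in stem. Its log2 fold change was -2.06 ± 0.30 (SE) with TMM and -1.52 with library totals. Its root values were 1.16, 1.19 and 4.89 TPM. Both were called higher in stem, and their leaf and stem libraries were far apart.

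Libraries of the same shoot tissue gave similar values. The rule required at least 30 TPM in each of them, which leaves out transcripts that fall low in any shoot library. The coefficient of variation over the 3 leaf libraries had a median of 7.88% and a highest value of 35.8%, and over the 3 stem libraries a median of 7.55% and a highest value of 42.1%. The medians for the transcripts not depleted in root were 6.18% and 5.45%. Replicate 1, 2 or 3 was the highest leaf library for 67, 65 and 56 of the 188 transcripts, and the highest stem library for 62, 75 and 51. Leaf replicate 3 was thus the highest for 29.8%, against 46.1% of those not depleted in root, and stem replicate 3 for 27.1%, against 19%. These differences were not tested.

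The rule set no limit on length, but it used TPM, which is scaled by effective length, so length entered the selection indirectly. Its part in the shares below was not tested. The 188 transcripts had a median length of 857 bases (quartiles 418 and 1506), compared with 1433 bases (825 and 2197) for the 2677 not depleted in root and 695 bases for all transcripts. Of the evenly shoot-expressed transcripts of up to 500 bases, 13.4% (60 of 448) were depleted in root. The share was 9.0% (46 of 511) over 500 and up to 1000 bases and 2.92% (25 of 856) above 2000 bases. Transcripts are not replicates, so these shares are given without a test. Of the 188, 23 had at most 300 bases, where Salmon's effective length had a median of 29 to 31.2 bases across root libraries but 68.4 to 91 bases across shoot libraries. For these 23, 1 read was worth 3.16 to 3.24 TPM in root and 0.589 to 0.979 TPM in shoot, which makes their root values coarse. Transcripts of up to 500 bases had a median of 8 reads over both root samples, and longer ones 74.7. The median ratio of the lower shoot mean to the root mean was 17.8 in the shorter class and 19.5 in the longer.

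**Figure D5:**
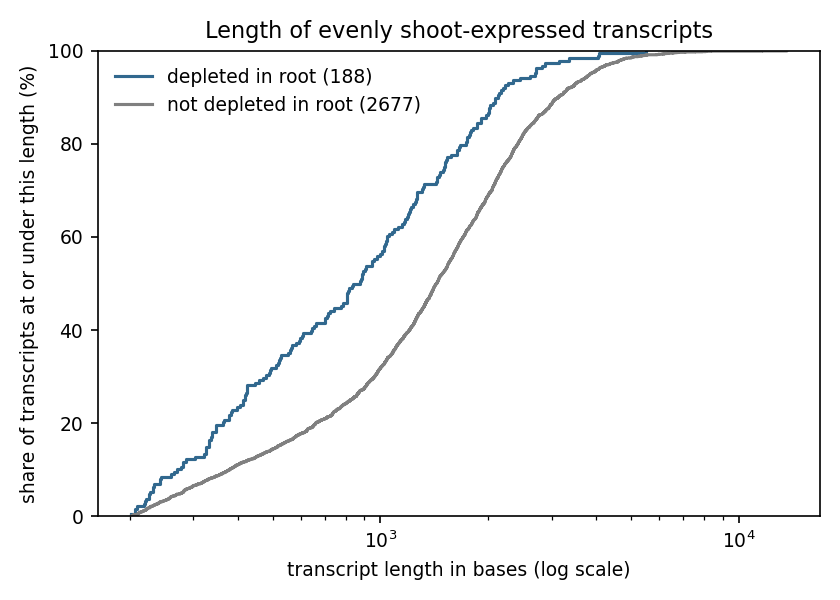
Cumulative share of transcripts (y axis, percent) at or under a given length in bases (x axis, log scale), for the 188 evenly shoot-expressed transcripts depleted in root and the 2677 not depleted. The curve of the depleted transcripts lies to the left, with medians of 857 and 1433 bases.

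Reads divided among similar transcripts are seen as read numbers that are not whole. Such numbers, more than 0.001 reads from a whole one, were found in at least 1 library for 152 of the 188 transcripts (80.9%) and for 91.0% of those not depleted in root. In single shoot libraries the shares were 69.1% to 75%, against 70.5% to 79.8% for the others. In single root libraries they were 45.7% to 52.7%, against 62.9% to 64.8% for the others, which had more root reads (median 1309 over both root samples, against 42.7). A transcript at 0 reads counts as whole here. Of the 188, 34, 34 and 9 were at 0 reads in root replicates 1, 2 and 3, against 3, 3 and 2 of the 2677 others. A low root value of a transcript with read numbers that are not whole can depend on how Salmon assigned reads to a similar one.

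The same rule with the tissues exchanged found fewer transcripts. Leaf and root transcripts depleted in stem numbered 44, which was 1.97% of the 2228 that were even and at least 30 TPM in leaf and root. Stem and root transcripts depleted in leaf numbered 32, or 1.66% of 1926. Their median lengths were 1162 and 938 bases. These counts are on unequal terms, since root had 2 samples and the lowest totals, and their difference from 188 was not tested.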

How the data were processed

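The tools named in the submitters' processing notes are fastp 0.23.2 and Salmon 1.10.0. Reference transcripts and options: not given in the sources used here. The deposited tables give, per the file headers, length, effective length, TPM and an estimated count of reads for 37051 transcripts in each of 9 libraries. Salmon divides reads among similar transcripts, so values of near-identical copies are uncertain. Members were found on TPM, with root replicates 1 and 2 averaged. Estimated counts were rounded and fitted with edgeR 4.0.16 in R 4.3.3 (filtering within tissues, TMM, robust quasi-likelihood, Benjamini-Hochberg over 24564 transcripts, 3 leaf, 2 root and 3 stem samples). The same model was also run on counts simulated with the same dispersion for every transcript. That setting lacks the differences between root samples seen here, so nothing about the calls is read from it. DESeq2 1.42.0, limma 3.58.1 on log2(TPM + 1) and log2(TPM + 0.1), other scalings, a replicate block and leaving out each library were alternatives. Numbers were printed for the 2 transcripts highest in shoot and the 2 with the largest leaf or stem excess without overlap; others are described by length. The members and the rules for describing them were chosen with earlier results of these data known.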

Additional observations from a re-analysis of the deposited data

How the results depend on the processing

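The number of transcripts found moved with the limits of the rule by construction: it was 120 at a minimum of 60 TPM, 325 with root at up to 20% of the lower shoot mean and 92 with root at up to 5%. It was 188 with root replicate 3 alone as root (163 shared with the main set), 200 with root replicates 1 and 2 alone (175 shared) and 221 with TMM-scaled TPM (162 shared). Chosen after seeing the data, CPM in place of TPM for the leaf to stem ratio and the root fraction gave 176 (166 shared). Leaving out each library gave 182 to 200. Calls lower in root stayed at 185 to 188 for leaf and 187 to 188 for stem in the settings run. Calls higher in leaf than stem, 1 with TMM, numbered 17 with library totals, 19 and 14 with limma on log2(TPM + 1) and log2(TPM + 0.1), 13 without the fold threshold, 2 with DESeq2, and 1 to 3 with a library left out (3 without leaf replicate 2, 2 without root replicate 3 or stem replicate 1). Calls higher in stem than leaf, 46 with TMM, numbered 20 with library totals, 19 with either limma fit, 72 without the fold threshold and 38 to 46 with a library left out. A replicate block on the 9 libraries gave 188, 188, 1 and 41 calls in the order above, and on leaf and stem libraries only 3 and 45. The share of all transcripts called is given for TMM and library totals only. Counts from the other fits therefore show only how the calls moved, and nothing is read from their size. Leaf and stem libraries of the same number deviated from their tissue means with correlations of -0.0329, 0.00865 and 0.0111. Libraries of unlike number gave -0.051 to 0.0414. No shared deviation by number was seen, which cannot tell whether such libraries came from the same plant. Of the transcripts named by number, transcripts_12372 was called higher in leaf with library totals and with limma, and transcripts_21985 lost its call without stem replicate 1, where its log2 fold change was 1.0 and its adjusted p (edgeR) was over 0.05. The share of TPM was 10.7% in leaf and 9.9% in stem with the most abundant transcript of all libraries left out, and 4.45% and 3.7% without the 4 most abundant members, an alternative added after seeing the data. In root it was 0.2% in root replicate 3 and 0.685% in the averaged pair. Depth limits part of the root values: 4 members had no root read and a further 15 had at most 3.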
